A study of Mus musculus with 2 samples.

Results

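The tRNA-like entries of the mouse miRNA microarray were examined in the 3rd mammary gland and beside it in the inter mammary gland region, the stretch of flank that separates the 3rd and 4th glands. They are mmu-miR-720, mmu-miR-1274a, mmu-miR-1937b and mmu-miR-1937c, 4 of the 696 mouse miRNA names on the array, and all 4 were found on both arrays. They were chosen by name, as former miRNA entries that match fragments of transfer RNA, and mmu-miR-1937b also because it was known to be the brightest entry on both arrays. Its brightness is therefore given as a description. The tissue came from untreated E13.5 embryos of ICR mice, an outbred strain, and both regions share this strain and stage. Each region gave 1 array, read from 100 ng of Cy3-labelled total RNA. The sources used here do not say how many embryos gave the RNA of a region. With 1 array per region there was no replicate, no test was run, and a difference between RNA samples or dissections cannot be told apart from a difference between the regions. In such bulk tissue, fewer cells of a type and less RNA per cell cannot be told apart either.

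Transfer RNAs carry amino acids to the ribosome and are among the most abundant RNAs of every cell. They can be cut by nucleases into shorter pieces, and such fragments are found in many tissues and are known to increase under stress. Early small RNA sequencing took some of these pieces for miRNAs. miR-720 corresponds to part of a threonine tRNA and miR-1274a to part of a lysine tRNA, and the entries were later withdrawn from the miRNA registry. In the labelling used here a Cy3 nucleotide is ligated to the 3′ end of RNA in the total RNA sample, and a signal on these probes does not say whether whole tRNA or a fragment was bound. Mature sequences were sought by name in the RefSeq miRNA table of GRCm38.p6, which matched 0 of the 4 names.

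The check of the regions came first. All 7 markers of skin and mammary epithelium (miR-200a, miR-200b, miR-200c, miR-141, miR-429, miR-203 and miR-205) were detected on both arrays, with a median log2 ratio of 0.34 for the 3rd mammary gland over the inter mammary gland region and a range of -0.31 to 0.51. All 4 markers of striated muscle (miR-1, miR-133a, miR-133b and miR-206) were lower in the 3rd mammary gland, between -1.43 and -1.12. The 3 markers of red blood cells (miR-451, miR-144 and miR-486) had ratios of -0.39 to 0.44. Of the neural markers miR-9, miR-124 and miR-137, 0 of 3 passed detection on either array. A spot counted as detected when the scanner software marked it well above background, a probe when more than 50% of its spots were so marked, and an entry when at least 1 of its probes was. By this rule 284 entries were detected on both arrays. The summed signal of the muscle markers before scaling was 1646 in the 3rd mammary gland against 3610 in the inter mammary gland region. The part of this difference between the tissues in the ratios below was not tested.

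All 4 tRNA-like entries were detected in both regions, and before scaling their signals differed between the regions by 1.04-fold for miR-720 and miR-1937b, 1.06-fold for miR-1937c and 1.10-fold for miR-1274a. Each entry was read by 2 probes of 10 spots. On each array the software marked all 80 spots of the 4 entries as well above background and 0 as saturated. The lowest spot belonged to miR-1274a on both arrays, 852.9 in the 3rd mammary gland against 983.8 in the inter mammary gland region. Negative control spots reached 17.3 and 19.2 at most, so that this dimmest spot was 49.2 times and 51.3 times the brightest negative control. Background therefore set no limit to these 4 entries, and the number of arrays did.

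miR-1937b had the highest signal of all 696 entries on both arrays. The background-subtracted signal, averaged over its probes and before any scaling, was 90689 in the 3rd mammary gland against 94208 in the inter mammary gland region. The dimmer of its probes gave 66696 ± 666 (SD over 9 spots) against 65559 ± 1679 (SD over 10 spots). The brighter gave 114681 ± 6625 and 122858 ± 7524 (SD over 10 spots each). Before scaling, the regions overlapped in both probes. The spots of the brighter one ran from 107447 to 124515 in the 3rd mammary gland against 112742 to 132488 in the inter mammary gland region. Scaling shifts the arrays against each other and can change whether spots overlap, here and for the entries below. Without scaling the probe means differed in direction, the dimmer being higher and the brighter lower in the 3rd mammary gland. Of 19 usable spot positions, 6 were brighter in the 3rd mammary gland.

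miR-720, the threonine tRNA entry, ranked 3rd by signal in the 3rd mammary gland against 4th in the inter mammary gland region. Its unscaled signal was 12376 in the 3rd mammary gland against 11931 in the inter mammary gland region. The dimmer probe gave 4752 ± 54.0 and 4496 ± 94.2, and the brighter one 20001 ± 348 and 19367 ± 626 (SD over 10 spots each). Before scaling, the arrays overlapped in the brighter probe and not in the dimmer. The spots of the dimmer were 4680 to 4857 in the 3rd mammary gland against 4381 to 4651 in the inter mammary gland region. miR-720 was the only one of the 4 whose unscaled signal was higher in the 3rd mammary gland, at 18 of 20 spot positions.

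miR-1274a, the lysine tRNA entry, had unscaled signals of 2189 in the 3rd mammary gland against 2413 in the inter mammary gland region. Its dimmer probe gave 898.9 ± 35.6 and 1025 ± 29.4, and the brighter one 3479 ± 121 and 3800 ± 108 (SD over 10 spots each). Before scaling, the spots of the dimmer probe did not overlap between the arrays. The highest value was 962.4 in the 3rd mammary gland against a lowest of 983.8 in the inter mammary gland region. Those of the brighter probe did not overlap either, at most 3617 in the 3rd mammary gland against no less than 3627 in the inter mammary gland region. All 20 spot positions were dimmer in the 3rd mammary gland without scaling.

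miR-1937c had unscaled signals of 1854 in the 3rd mammary gland against 1964 in the inter mammary gland region. The dimmer probe gave 1424 ± 34.4 (SD over 9 spots) against 1561 ± 28.8 (SD over 8 spots), and the brighter one 2285 ± 48.6 and 2367 ± 55.7 (SD over 10 spots each). Before scaling, the arrays overlapped in the brighter probe and not in the dimmer. The highest spot of the dimmer was 1488 in the 3rd mammary gland against a lowest of 1501 in the inter mammary gland region. All 17 spot positions that were usable on both arrays were dimmer in the 3rd mammary gland without scaling. Despite the shared name, the entries miR-1937b and miR-1937c lay at opposite ends of the 4 by signal, but different probes bind with different strength, and their signals do not compare as amounts of RNA.

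**Figure D1:**
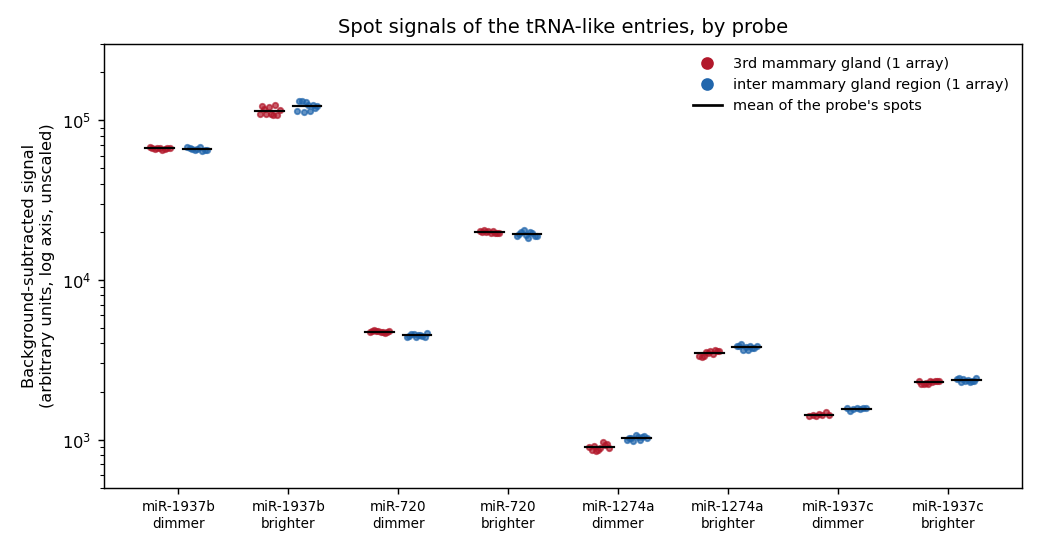
Background-subtracted signal of each spot (arbitrary units, log axis, unscaled) for the dimmer and the brighter probe of each entry, in the 3rd mammary gland next to those of the inter mammary gland region. Points are spots usable on both arrays and black lines are probe means over 8 to 10 spots. The probe means of miR-1937b run from 65559 to 122858 and those of miR-1937c from 1424 to 2367, and for each probe the means of the regions lie close together.

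The software also gives a total signal per entry, with an error. The total signal of miR-1937b was 120115 (error 8796) in the 3rd mammary gland against 122040 (error 9032) in the inter mammary gland region. For miR-720 it was 16392 (error 1362) and 15456 (error 1288), for miR-1274a 2899 (error 238) and 3125 (error 255), and for miR-1937c 2456 (error 178) and 2545 (error 184). The ranks of the entries by total signal were those by spot signal.

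A large part of all fluorescence on both arrays lay on these few probes. Of the summed signal of the 696 entries, miR-1937b alone took 29.1% in the 3rd mammary gland against 29.5% in the inter mammary gland region. miR-720 took 3.97% and 3.74%, miR-1274a 0.701% and 0.755%, and miR-1937c 0.594% and 0.615%. Together the 4 entries took 34.3% ± 1.07 percentage points in the 3rd mammary gland against 34.6% ± 1.21 in the inter mammary gland region, with an error carried over from the SD of the spots, which is technical. The largest share of any other entry was 5.50% for miR-199a-3p in the 3rd mammary gland against 4.71% for miR-2138 in the inter mammary gland region. These are shares of fluorescence, not of RNA molecules, and they do not depend on scaling between the arrays.

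**Figure D2:**
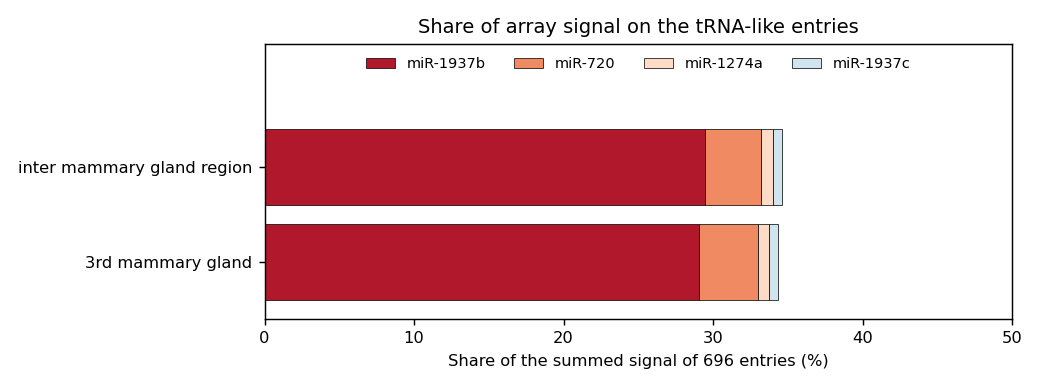
Share of the summed background-subtracted signal of 696 entries (%) taken by each tRNA-like entry, 1 array per region. The stacked bars end at 34.3% for the 3rd mammary gland against 34.6% for the inter mammary gland region, and most of each bar is miR-1937b.

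To compare the regions, each array was scaled so that the 75th percentile over its commonly detected probes was 1, and the log2 ratio of the 3rd mammary gland over the inter mammary gland region was taken. The ratio was -0.077 ± 0.040 (SD over 20 spot positions) for miR-720, -0.19 ± 0.074 (19 positions) for miR-1937b, -0.21 ± 0.052 (17 positions) for miR-1937c and -0.27 ± 0.081 (20 positions) for miR-1274a. On the linear scale these are 1.06-fold, 1.14-fold, 1.16-fold and 1.21-fold lower in the 3rd mammary gland. In this order the intervals of 1 SD around the ratios of neighbouring entries overlapped in 3 of 3 pairs. Over all 6 pairs 2 did not overlap, miR-720 against miR-1937c (a difference of 0.14) and against miR-1274a (0.19). This spread is technical and carries no test. After scaling, the ratio was below 0 at 19 of 20 spot positions of miR-720 and at every usable position of the other 3 entries.

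The size of these differences was small beside the fold used here to mark a change. Past 1.5-fold lay 0 of the 4 entries in either direction, where 2.11% of the 284 entries detected on both arrays were higher in the 3rd mammary gland and 9.15% lower. The 4 entries span 0.19 on the log2 scale.

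The sign of the ratio rests on the scaling for miR-720. With no scaling its ratio was 0.053, and with scaling by all probes at the 75th percentile 0.082, both above 0, while those of miR-1937b (-0.055 and -0.026), miR-1937c (-0.083 and -0.055) and miR-1274a (-0.14 and -0.11) stayed below 0. The choice of scaling moved the median log2 ratio of the 284 entries from 0.048 to 0.18 with none and 0.21 with all probes. Of all entries past 1.5-fold, 18.8% were higher with the first scaling (6 against 26), 39.5% with none (15 against 23) and 46.3% with all probes (19 against 22). Set against the median entry, which removes any constant factor between the arrays, miR-720 lay 0.13 below it, miR-1937b 0.23, miR-1937c 0.26 and miR-1274a 0.32. Of the 284 entries, 90 had a lower ratio than miR-720, 59 than miR-1937b, 54 than miR-1937c and 49 than miR-1274a. All 4 thus stood in the lower part of the distribution without being at its edge.

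**Figure D3:**
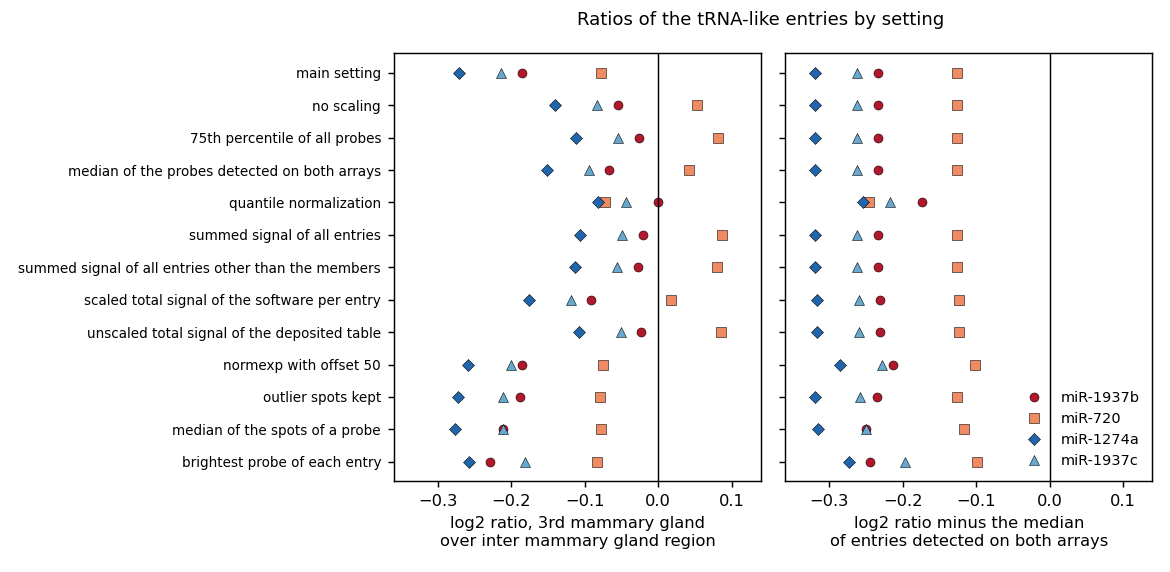
Log2 ratio of the 4 entries under the main setting and 12 alternatives (left), and the same after subtracting the median of the entries detected on both arrays (right). On the left miR-720 crosses 0 with the scaling, and on the right all points lie below 0, from -0.32 to -0.099, where 5 of the alternatives equal the main setting by construction.

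After scaling, the probes of one entry gave ratios of the same sign, but not always of like size. Within an array the brighter probe of miR-720 was 4.21 times the dimmer one in the 3rd mammary gland against 4.31 times in the inter mammary gland region. For miR-1274a this quotient was 3.87 and 3.71, for miR-1937b 1.72 and 1.87, and for miR-1937c 1.60 and 1.52. These quotients need no scaling between arrays. The log2 ratios of all 8 probes lay between -0.32 and -0.050 after scaling. The largest disagreement within an entry was that of miR-1937b, with -0.11 for the dimmer and -0.23 for the brighter probe, though the spot positions of its probes overlapped. This gap is not small beside the 0.19 that the 4 entries span.

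The spots themselves were even. The coefficient of variation over the spots of a probe was 0.998% to 6.12%, and it was highest for the brighter probe of miR-1937b, with 5.78% in the 3rd mammary gland against 6.12% in the inter mammary gland region. The SD of the ratio over spot positions was 0.040 to 0.081 for the 4 entries, against a median of 0.081 for the 20 brightest other entries and 0.13 for all 280 others. The SD of the ratio pools the probes of an entry, and so also holds the difference between them. For miR-1937b it was 0.074, against 0.032 within the dimmer and 0.055 within the brighter probe. Both measures are technical, within a pair of arrays, and say nothing of the spread between embryos.

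**Figure D4:**
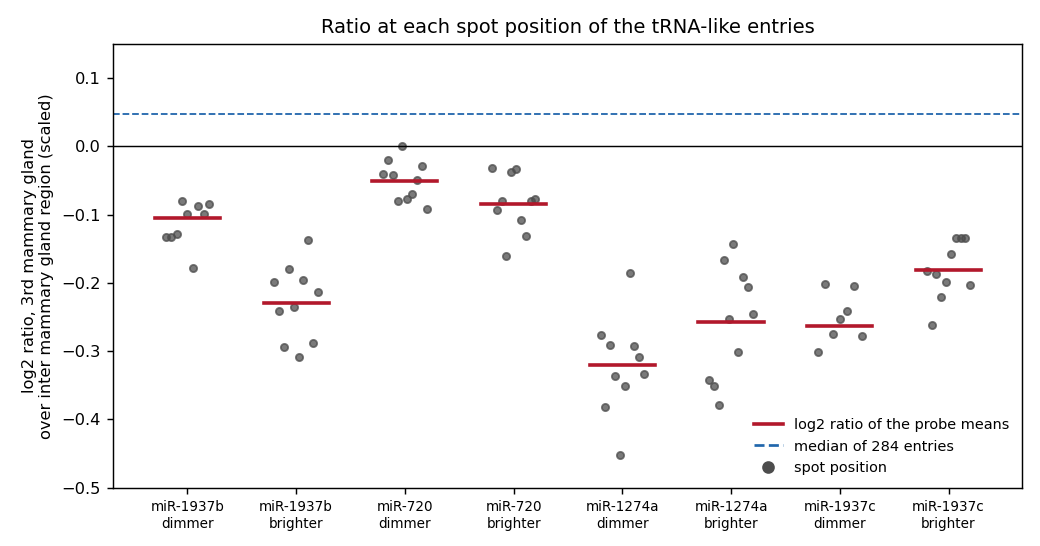
Log2 ratio of the 3rd mammary gland over the inter mammary gland region at each spot position, after scaling, for both probes of each entry. Red lines are ratios of the probe means, from -0.32 to -0.050, and the dashed line is the median of the 284 entries at 0.048, above every spot.

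The ratios were also taken by position. Each array was divided into 4 parts at its middle row and column. The median ratio of miR-1274a was -0.35 to -0.21 over the parts, that of miR-1937b -0.24 to -0.093, that of miR-1937c -0.23 to -0.20 and that of miR-720 -0.085 to -0.037, from 3 to 9 spots a part. The spots of the other commonly detected entries differed by part as well, with medians from -0.0030 in the upper right to 0.14 in the lower left. Within the same part the median of the tRNA-like entry was below that of the other entries in 16 of 16 comparisons, by 0.074 to 0.36. These are the same 4 entries on the same arrays cut into parts, and not 16 separate observations.

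The scanner read the brightest spots in a different way. The files mark spots whose value comes from a scan at low sensitivity and was scaled up to the common range. They numbered 33 in the 3rd mammary gland against 25 in the inter mammary gland region, of 13920 each, and 26 and 24 of them belonged to the tRNA-like entries. All 20 spots of miR-1937b were read in this way on both arrays. Of the 10 spots of the brighter miR-720 probe, 6 were so read in the 3rd mammary gland against 4 in the inter mammary gland region. The spots of miR-1274a and miR-1937c were all read at full sensitivity. For that miR-720 probe the mean log2 ratio was -0.063 over 3 positions at full sensitivity on both arrays and -0.12 over 3 positions at low sensitivity on both. The remaining positions, read differently on the arrays, gave -0.050 over 3 and -0.13 at 1. Spots read at low sensitivity are the brighter ones, so these groups are sorted by the signals that make the ratio. An effect of the reading itself cannot be taken from them. With full-sensitivity spots only, which are picked by signal in the same way, the ratio of miR-720 was -0.061 in place of -0.077. This comparison was added once the data had been seen. A ratio for miR-1937b at full sensitivity could not be had, and the part of the scan setting in its ratio was not tested.

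The 4 entries were then set beside the entries nearest to them in mean log2 scaled signal of both arrays. By this mean the 5 brightest others were miR-199a-3p, miR-125b-5p, miR-199b*, miR-199a-5p and miR-130a. The miR-199 strands are known from mesenchyme, miR-125b from many developing tissues. Of these, 3 have a mature sequence under the same name in RefSeq (GRCm38.p6), shown because they are annotated miRNAs among the brightest by this mean, with the seed (bases 2 to 8) in capitals.
mmu-miR-199a-3p: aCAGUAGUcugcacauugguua
mmu-miR-125b-5p: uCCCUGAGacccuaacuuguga
mmu-miR-199a-5p: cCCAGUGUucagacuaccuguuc

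The log2 ratio of miR-199a-3p was 0.32 ± 0.062 (SD over 20 spot positions), from unscaled signals of 17168 in the 3rd mammary gland against 12585 in the inter mammary gland region. That of miR-125b-5p was 0.41 ± 0.22 (19 positions) and that of miR-199b* 0.075 ± 0.069 (14 positions). These 3 flank miR-720 in signal, and all 3 had a higher ratio than miR-720. miR-199a-3p and miR-125b-5p also follow miR-1937b and had a higher ratio than it. However, no other entry came close to miR-1937b in level. Its scaled signal was 115 in the 3rd mammary gland against 131 in the inter mammary gland region. That of miR-199a-3p was 21.8 and 17.5. Around miR-1274a, miR-709 (0.33), miR-2141 (0.96) and miR-92a (-0.027) had higher ratios and miR-2135 (-2.45) a lower one. Around miR-1937c, miR-24 (0.11), miR-10b (0.21) and miR-126-3p (0.046), a miRNA of vessel endothelium, had higher ratios and let-7i (-0.46) a lower one. Counted by member, the ratio was higher in 3 of 3 neighbours of miR-720, 2 of 2 of miR-1937b, 3 of 4 of miR-1274a and 3 of 4 of miR-1937c. Of the 284 entries detected on both arrays, 193 had a higher ratio than miR-720 and 224 than miR-1937b. For miR-1274a it was 234 and for miR-1937c 229. Most entries thus lay above each member, and so few neighbours, some of them shared between members, show nothing beyond that.

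Among the 20 brightest entries outside the group, the median log2 ratio was 0.057, with 9 below 0. Of these 20, 16 had a ratio above all 4 tRNA-like entries and 3 below all of them. Over all 284 entries detected on both arrays these counts were 193 and 49. The bright entries with the ratio nearest to the median of the 4, which was -0.20, were let-7f (-0.087), let-7a (-0.050) and miR-20a (-0.039).

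A pair of other groups was set beside these differences. The let-7 miRNAs, which accumulate as tissues differentiate, are counted here with miR-98 of the same family. All were detected on both arrays, 9 of 9. Their median log2 ratio was -0.050 and they ran from -0.46 for let-7i to 0.24 for let-7e, a width of 0.70, with 0 past 1.5-fold. The entries of the miR-2132 to miR-2146 series with miR-689 were on the array for 13 of 16 names, and 11 were detected on both arrays. Of these 11, 7 were lower and 2 higher in the 3rd mammary gland by at least 1.5-fold. The lowest was miR-2134, with unscaled signals of 408.3 in the 3rd mammary gland against 11252 in the inter mammary gland region, a log2 ratio of -4.91, and the highest was miR-2141 at 0.96. The width of this group was 5.88, against 0.19 for the tRNA-like entries. However, miR-2134 and miR-2141 were also the lowest and the highest of all 284 entries, so that 5.88 is the full range of the set. Ranges also widen with the number of entries, here 9 and 11 against 4, and these widths are descriptions only. Over all 284 entries the middle part, from the 25th to the 75th percentile, ran from -0.14 to 0.22, so that miR-720 lay inside it and the other 3 below it.

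**Figure D5:**
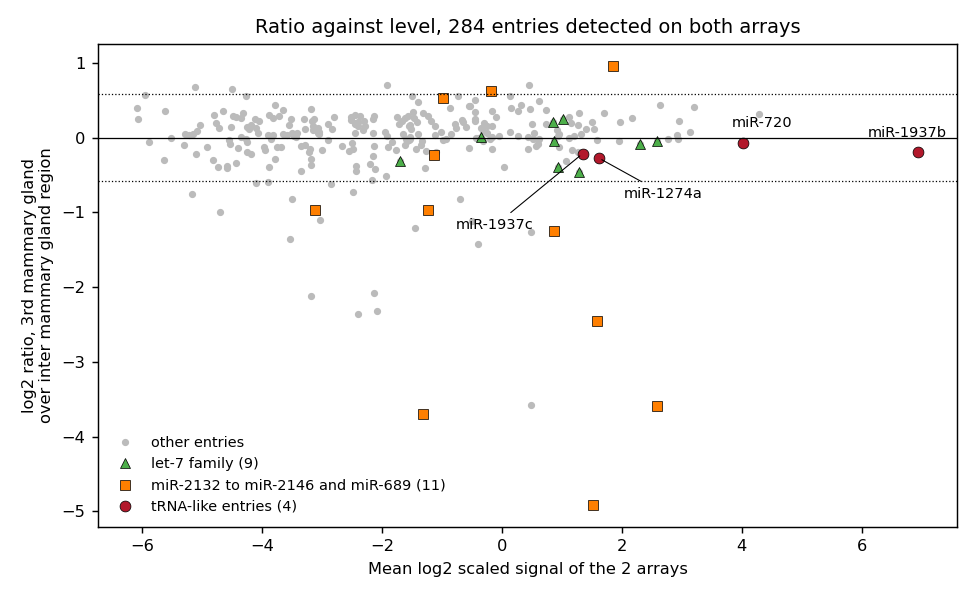
Log2 ratio of the 3rd mammary gland over the inter mammary gland region against the mean log2 scaled signal, for 284 entries detected on both arrays. Dotted lines mark 1.5-fold. The 4 tRNA-like entries lie between -0.27 and -0.077 at the bright end, while entries of the miR-2132 to miR-2146 series reach -4.91.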

How the data were processed

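Total RNA of E13.5 3rd mammary gland and inter mammary gland tissue was read on 1-colour Agilent miRNA microarrays, 1 per region, on 1 slide and in 1 scan. The samples were grouped by their titles. The authors scanned the arrays and deposited, per the file headers, the Feature Extraction 10.7.3.1 intensity of each spot, background-subtracted, linear and not normalized between arrays, and a table of total signal per miRNA, equal to that of the scanner files for all 696 entries within a relative difference of 1e-06. Normalized values from GeneSpring GX, the program named in the methods, were not used here.

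Control and outlier spots were left out (1.67% of miRNA spots for the 3rd mammary gland, 2.51% for the other region). Spots were averaged by probe, arrays scaled, and probes averaged by entry. Before scaling, the 75th percentile was 786.4 and 718.5. An error is the SD over spots or spot positions, which is technical. Steps were tested on simulated data. Entries named beside the members were the 5 brightest others, the nearest 2 above and below each member by mean level, the 3 of the 20 brightest nearest to the members' median ratio, and list members past 1.5-fold. The members, the lists of miRNAs and the rules were chosen with earlier results of these data known. Alternatives covered scaling, signal column, background, outliers, spots, probes, detection and threshold. Python 3.11.15, numpy 2.4.6, pandas 2.3.3, matplotlib 3.10.9, R 4.3.3 and limma 3.58.1 were used.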

Additional observations from a re-analysis of the deposited data

How the results depend on the processing

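No paired analysis was possible because only 1 array was run per region, and leaving out an array was not possible either. The number of tRNA-like entries past 1.5-fold was 0 in both directions under each of 15 alternatives. Among these, the 2-fold threshold could give no other count, and detection as called by the software left the ratios unchanged. In the main setting 252 of the 284 entries lay within 1.5-fold. Of the 12 alternatives for their distance to the median entry, 5 change only a constant factor and return the main value by construction, and 1 repeats another. The other 6 gave 24 values, all below 0, from -0.32 to -0.099. The distance moved by more than the spread over spots for miR-720 after quantile normalization (-0.25) and for miR-1937c with the brightest probe (-0.20). These distances and the full-sensitivity value of miR-720 were added after the data were examined.

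The log2 ratios that moved beyond that spread are given for miR-720, miR-1274a, miR-1937b and miR-1937c in turn. They were 0.053, -0.14, -0.055 and -0.083 with no scaling, 0.082, -0.11, -0.026 and -0.055 with all probes at the 75th percentile, and 0.041, -0.15, -0.067 and -0.095 with the median of the commonly detected probes. With the summed signal of all entries they were 0.086, -0.11, -0.021 and -0.050, and with that of the other entries 0.080, -0.11, -0.027 and -0.056. The software's totals gave 0.017, -0.18, -0.091 and -0.12 scaled and 0.085, -0.11, -0.023 and -0.051 unscaled. Quantile normalization gave -0.082 for miR-1274a, -0.044 for miR-1937c and 0 for miR-1937b, which has the top rank on both arrays. miR-720 was above 0 in 7 of 14 alternatives, and the others were below or at 0 in all of theirs. The share of the summed signal was 29.7% in the 3rd mammary gland against 30.4% in the inter mammary gland region after normexp. This setting adds an offset of 50 and starts from the median pixel signal and local background of each spot. The part of each in the share was not tested.

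Of all entries detected on both arrays, 6 were higher in the 3rd mammary gland by 1.5-fold or more. This was 15 with no scaling and with the median, 19 with all probes and with the summed signal of the other entries, 20 with that of all entries and with unscaled totals, 14 after quantile normalization and with scaled totals, 13 with detection as called by the software and 2 after normexp. At 2-fold it was 0 higher, and 16 in place of 26 lower. Beyond these constructions the cause was not tested.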
